A study of Homo sapiens with 6 samples.

Results

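The genes described here code for the subunits of nuclear factor kappa B (NF-kB) and for its main inhibitors. They were taken by gene symbol from the deposited expression table. All 10 were found among its 19386 genes, namely 5 subunit genes (NFKB1, NFKB2, REL, RELA and RELB) and 5 inhibitor genes (NFKBIA, NFKBIB, NFKBIE, NFKBIZ and TNFAIP3). Messenger RNA was sequenced from AC16 cells, a human line derived from adult ventricular heart cells fused with virus-transformed fibroblasts and labelled as cardiomyocytes of wild-type genotype. Of the 6 libraries, 3 came from cells given 26 mM potassium chloride (KCl), which depolarizes the cell membrane and is the arresting agent of cardioplegia solutions, and 3 from untreated control cells, with RNA taken at 16 h in both groups. A single line was used. Separate cultures are not mentioned in the labels, and p-values therefore cover only the variation among these 6 libraries, part or all of which may be technical.

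NF-kB is a family of transcription factors that act as dimers of the 5 related subunits. In a resting cell the dimers are held in the cytoplasm by inhibitor of kappa B (IkB) proteins. Signals from cytokine and Toll-like receptors activate the IkB kinase complex, the inhibitor is degraded, and the freed dimer enters the nucleus and switches on inflammatory and survival genes, among them the genes of several of its own subunits and inhibitors. In the heart the pathway is known for its part in the response to cytokines, ischaemia and cell injury.

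Library totals ran from 18886525 to 19159312 estimated reads in KCl and from 18601977 to 19286588 in control. Of 13 cardiomyocyte markers, TNNT2, NPPA and NKX2-5 had no read in any library and 5 more (MYH7, MYL2, NPPB, TBX5 and PLN) had at most 3 reads in each, while GATA4 was near 29 TPM in KCl and 30.2 TPM in control (TPM is a level scaled to gene length and library size). A count of 0 allows up to 3 reads in a library. ACTN2 averaged 0.78 TPM in KCl and 0.613 TPM in control, and TNNI3 0.1 TPM in KCl and 0.47 TPM in control. MYH6 and RYR2 averaged at most 0.0467 TPM in either group. The labelled cell type was thus not borne out by most of its markers on this list. All 7 fibroblast markers were tested, with 6 of the 7 called higher. Their summed level was 2480 to 2656 TPM in KCl and 2426 to 2631 TPM in control. COL1A1, most of that sum, averaged 1527 TPM in KCl and 1659 TPM in control, with ranges that overlapped. PDGFRB and LUM averaged 63.7 and 54.9 TPM in KCl, against 35.1 and 28.7 TPM in control. The leukocyte markers summed to 124 to 133 TPM in KCl and 171 to 185 TPM in control, mostly CD68, which was called lower at means of 124 TPM in KCl and 177 TPM in control. CD14 was called higher, at 4.25 TPM in KCl and 2.2 TPM in control, PTPRC was not called (1 TPM in KCl and 0.783 TPM in control), and MS4A1 was at 0. The endothelium markers summed to 5.43 to 5.84 TPM in KCl and 4.31 to 5.02 TPM in control, the epithelium markers to 19.7 to 23.4 TPM in KCl and 17.5 to 22.1 TPM in control, and the smooth muscle markers to 98.1 to 110 TPM in KCl and 107 to 126 TPM in control. Of the tested markers, 1 of 2 for endothelium and 1 of 2 for epithelium were called higher, and 0 of 4 for smooth muscle were called. The part of these marker differences in the results on NF-kB genes was not tested.

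The promoters of the NF-kB genes are shown first because most of them carried a match to the kappaB consensus, a pattern that describes the sites NF-kB binds. The kappaB consensus is 10 bases long, made of G's, a purine, a free centre, pyrimidines and C's, and it was searched on both strands from 250 bases before to 50 bases after each annotated gene start, with the start counted as base 1. RefSeq promoter windows (GRCh38.p14) were held for 8 of the 10 genes, in 14 windows, since some genes have several starts. RELB and NFKBIE were not among them. A match was found in 7 of these 8 genes (87.5%), all but RELA, against 1849 of the 10610 tested genes with a window (17.4%). In a list of NF-kB target genes, tested or not, 15 of 25 genes with a window (60.0%) had a match. Of all genes with a window, tested or not, 3619 of 27305 (13.3%) had one. A gene was counted if any of its windows held a match, so a gene with several starts had more chances. By window, the share was 64.3% for the NF-kB genes (9 of 14) and 11.3% over all windows (3956 of 35116). Below, capitals mark the kappaB matches in the windows of NFKB1 (chr4:102501109-102501408, plus strand), NFKBIA (chr14:35404700-35404999, minus strand) and TNFAIP3 (chr6:137867009-137867308, plus strand), a subunit gene and the inhibitor genes best known as NF-kB targets, each written along the strand of its gene.
NFKB1: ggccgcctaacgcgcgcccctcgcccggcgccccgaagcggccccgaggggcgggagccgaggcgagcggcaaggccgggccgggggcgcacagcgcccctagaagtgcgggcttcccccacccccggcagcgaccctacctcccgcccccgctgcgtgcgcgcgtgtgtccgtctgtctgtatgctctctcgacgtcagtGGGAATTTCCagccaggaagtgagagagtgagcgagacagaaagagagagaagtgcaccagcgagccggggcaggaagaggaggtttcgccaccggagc
NFKBIA: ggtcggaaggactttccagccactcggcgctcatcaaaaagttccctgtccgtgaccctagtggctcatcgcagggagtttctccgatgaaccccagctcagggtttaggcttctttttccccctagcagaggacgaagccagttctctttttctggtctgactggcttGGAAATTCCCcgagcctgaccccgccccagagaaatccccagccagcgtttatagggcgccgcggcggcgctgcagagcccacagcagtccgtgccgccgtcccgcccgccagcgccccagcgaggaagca
TNFAIP3: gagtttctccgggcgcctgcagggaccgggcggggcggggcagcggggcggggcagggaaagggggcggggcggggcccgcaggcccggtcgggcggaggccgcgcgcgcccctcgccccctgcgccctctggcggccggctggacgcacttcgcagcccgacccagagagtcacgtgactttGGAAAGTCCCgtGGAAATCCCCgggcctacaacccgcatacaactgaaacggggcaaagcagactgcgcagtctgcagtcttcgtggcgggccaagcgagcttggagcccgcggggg

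In NFKB1 the match spanned bases -49 to -40, and in NFKBIA it lay on the opposite strand at -81 to -72. TNFAIP3 had a pair of matches on the opposite strand, at -67 to -58 and -55 to -46, with 2 bases between them. The matches in the other genes, also written along the gene strand, are given with their positions. Left out are those on the opposite strand that overlap a match shown or cover the same bases.
NFKB2, start 2, -107 to -98: GGGAATTCCC
NFKB2, start 2, -78 to -69: GGGGCTTTCC
NFKB2, start 3, -176 to -167: GGGGCTTCCC
NFKB2, start 3, -21 to -12: GGGACTTTCC
REL, -47 to -38: GGGAAATTCC
NFKBIB, start 2, -28 to -19: GGGAATTTCC
NFKBIB, start 2, 39 to 48: GGGGGGCCCC
NFKBIZ, start 1, -223 to -214: GGGAATTTCC
NFKBIZ, start 2, -239 to -230: GGGGTTTCCC
Starts are numbered by their order on the chromosome. The sequence GGGAATTTCC stood on the gene strand in NFKB1, NFKBIB and NFKBIZ and, read on the opposite strand, in NFKBIA and REL. Several matches overlapped a shifted or reverse match on the other strand, as in REL, where bases -47 to -38 matched on the gene strand and -46 to -37 on the opposite strand. Most of the windows were richer in G and C (range 51.3% to 79.0%) than the median of 58.7% over all windows in the table. RELA start 2 (51.3%) and NFKBIZ start 1 (55.7%) lay below that median. Over all tested genes with a window, a match was present in 434 of 2104 genes called higher in KCl (20.6%), 319 of 1951 called lower (16.4%) and 1096 of 6555 not called (16.7%). A match describes the letters only and does not show that the factor binds there.

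**Figure D1:**
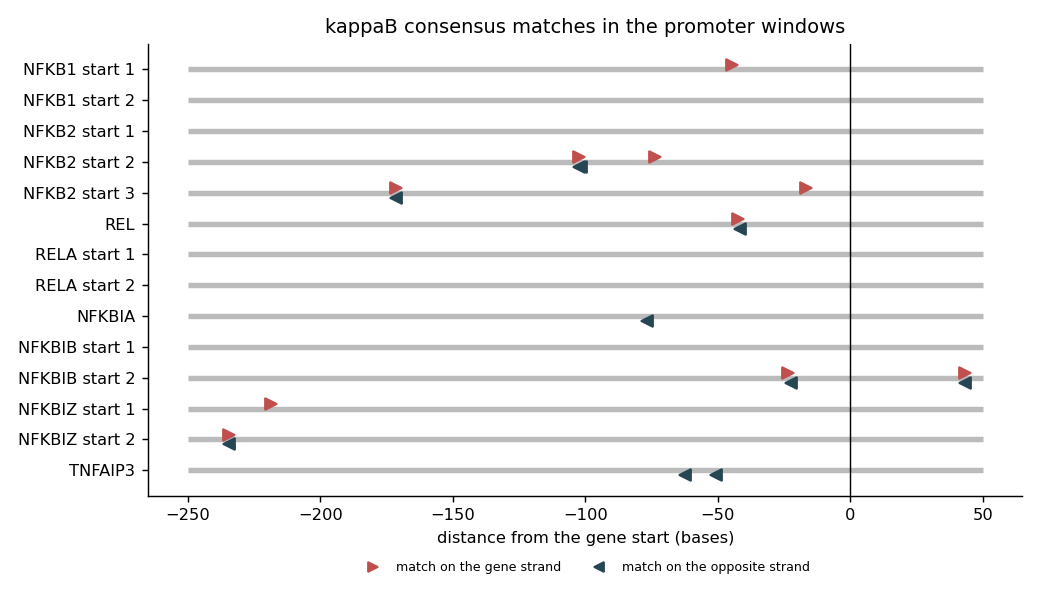
Positions of kappaB consensus matches in the 14 RefSeq promoter windows of the NF-kB genes, from 250 bases before to 50 bases after the gene start (x axis, bases; line at the start). Each grey bar is a window and each triangle a match on the gene strand or the opposite strand, and 9 of the 14 windows hold at least 1 match, with none in the windows of RELA.

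The level per gene length ran over a wide range within the family. RELA, which codes for the main activating subunit, was the highest in both groups, with 175.3 ± 9.19 TPM in KCl and 163.2 ± 9.74 TPM in control (mean ± SD, n = 3 each). REL, a subunit best known from lymphocytes, was the lowest, with 2.54 ± 0.052 TPM in KCl and 2.767 ± 0.518 TPM in control. Between them came NFKB2, NFKBIA, NFKBIB and RELB in that order in both groups, at means of 87.53, 71.06, 50.87 and 34.15 TPM in KCl and 94.05, 69.23, 57.99 and 41.85 TPM in control. NFKBIE (25.67 TPM) stood above NFKB1 (22.44 TPM) in KCl, with library ranges that overlapped, whereas in control NFKB1 (31.09 TPM) stood above NFKBIE (21.37 TPM) with ranges apart. NFKBIZ and TNFAIP3 followed, at 12.21 and 9.527 TPM in KCl and 14.85 and 11.21 TPM in control. Apart from NFKBIE and NFKB1 in KCl, neighbours in the order did not overlap between libraries in either group.

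Set against control, the KCl libraries show which of these genes differed at 16 h. NFKB1, RELB and NFKBIZ fell and RELA and NFKBIE rose, all by less than a factor of 1.5. Thus 5 of the 10 genes were called, 2 higher and 3 lower. Of all 13044 tested genes 38.0% were called, 20.1% as higher and 18.0% as lower. A gene was called where the Benjamini-Hochberg adjusted p of edgeR's quasi-likelihood test was under 0.05. All 10 passed the filter on low counts. The groups did not overlap in CPM (read counts scaled to library size, with TMM factors) at 5 of the 10, which compares with 47.8% of all tested genes. The median log2 fold change of the 10 genes was -0.13, and that of all tested genes -0.005. The median size of the change, whatever its sign, was 0.16 on the log2 scale for the 10 genes and for all tested genes alike. In bulk RNA, fewer cells of a type and less RNA per cell cannot be told apart. Other times were not analysed here.

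**Figure D2:**
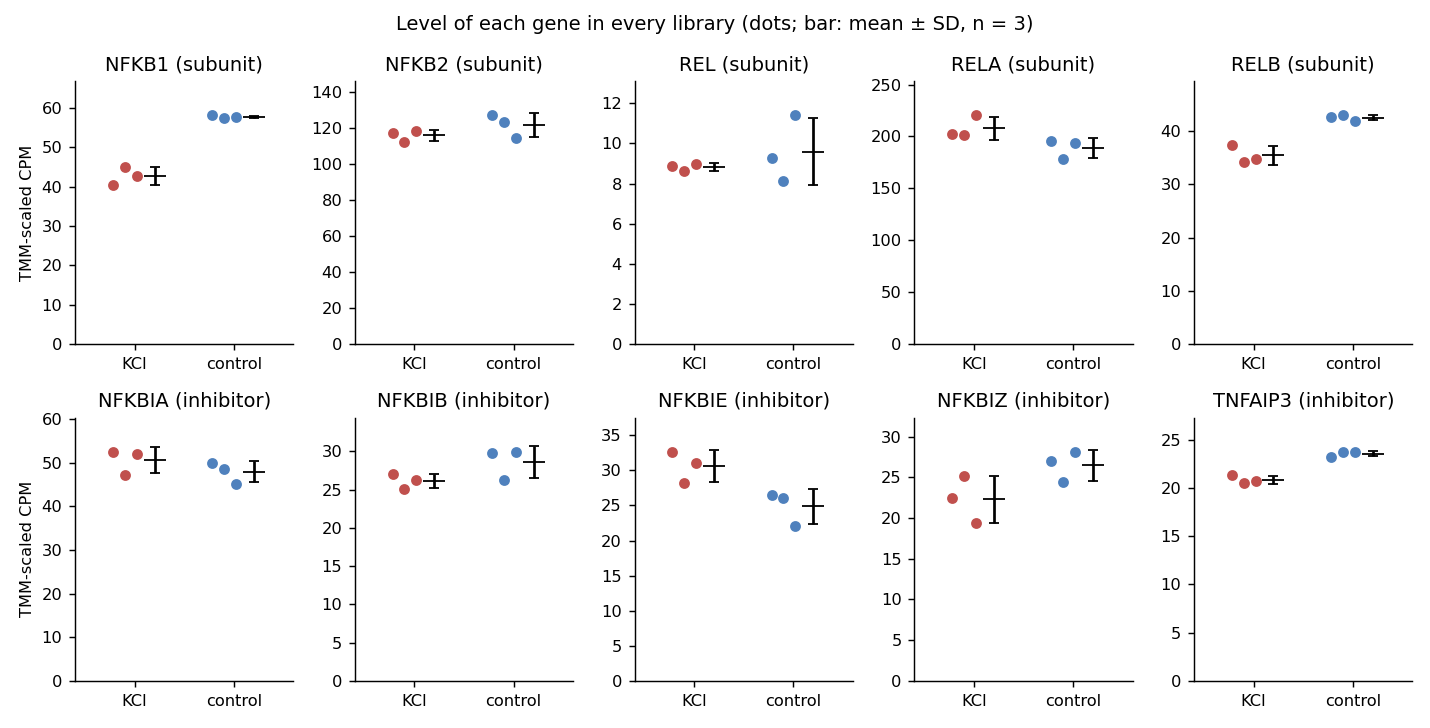
TMM-scaled CPM (y axis, from 0) of each of the 10 genes in the 3 KCl libraries (red dots, left) and the 3 control libraries (blue dots, right), with the mean and SD beside the dots. The KCl libraries lie apart from and below the control libraries for NFKB1, RELB and TNFAIP3, and apart from and above them for RELA and NFKBIE.

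Among the subunits, the largest change was that of NFKB1, which codes for a long precursor that acts as an inhibitor and is cut to a DNA-binding subunit without an activation domain (gene ID 4790, GRCh38 chromosome 4, 102501329 to 102617302, plus strand). It had 40.5, 45.0 and 42.6 CPM in the KCl libraries, against 58.1, 57.5 and 57.6 CPM in the control libraries. The groups were well apart, and the control libraries lay within 1 CPM of each other. The log2 fold change was -0.44 ± 0.06 (SE), a fold of 0.74 (edgeR adjusted p = 2.47e-06), at percentile 6.7 of all tested genes. It was called in the main test and each of the 15 alternatives, with a log2 fold change of -0.48 to -0.40, and it was the 1 gene of the 10 still called against a fold change of 1.2.

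RELB, the subunit that pairs with processed NFKB2 in the slower, non-canonical arm of the pathway (gene ID 5971, chromosome 19, 45001430 to 45038198, plus strand), had 37.4, 34.1 and 34.7 CPM in KCl, against 42.6, 42.9 and 41.9 CPM in control. Every KCl library was below every control library. The log2 fold change was -0.26 ± 0.06 (edgeR adjusted p = 0.00214). Its partner gene NFKB2 (gene ID 4791, chromosome 10, 102394110 to 102402529, plus strand), whose long product is both an inhibitor and a precursor, had 117.4, 112.6 and 118.5 CPM in KCl, against 127.2, 123.5 and 114.4 CPM in control. These groups overlapped, and the gene did not pass (edgeR adjusted p = 0.287, log2 fold change -0.07 ± 0.05).

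RELA (gene ID 5970, chromosome 11, 65653596 to 65663094, minus strand) had 201.9, 201.2 and 220.3 CPM in KCl, against 195.5, 177.9 and 193.5 CPM in control. KCl replicate 3 was the highest and control replicate 2 the lowest of the 6 libraries. The log2 fold change was 0.14 ± 0.05 (edgeR adjusted p = 0.0219). The call was lost without KCl replicate 3 (0.09, edgeR adjusted p = 0.165) and without control replicate 2 (0.09, edgeR adjusted p = 0.148), with upper-quartile scaling (edgeR adjusted p = 0.0985) and on TPM, where the groups overlapped. Across the alternatives the adjusted p lay between 0.00828 and 1. REL (gene ID 5966, chromosome 2, 60881521 to 60931610, plus strand), which like RELA and RELB has an activation domain, had 8.88, 8.61 and 8.98 CPM in KCl, against 9.26, 8.12 and 11.4 CPM in control. Control replicate 3 was above the other libraries and control replicate 2 below them, and the gene did not pass (edgeR adjusted p = 0.479, log2 fold change -0.12 ± 0.13). In GENCODE 29 an overlapping non-coding gene on the same strand (AC010733.2), which is not among the genes of the table, shares 43.3% of the exon bases of REL, so reads of the 2 cannot be told apart there.

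**Figure D3:**
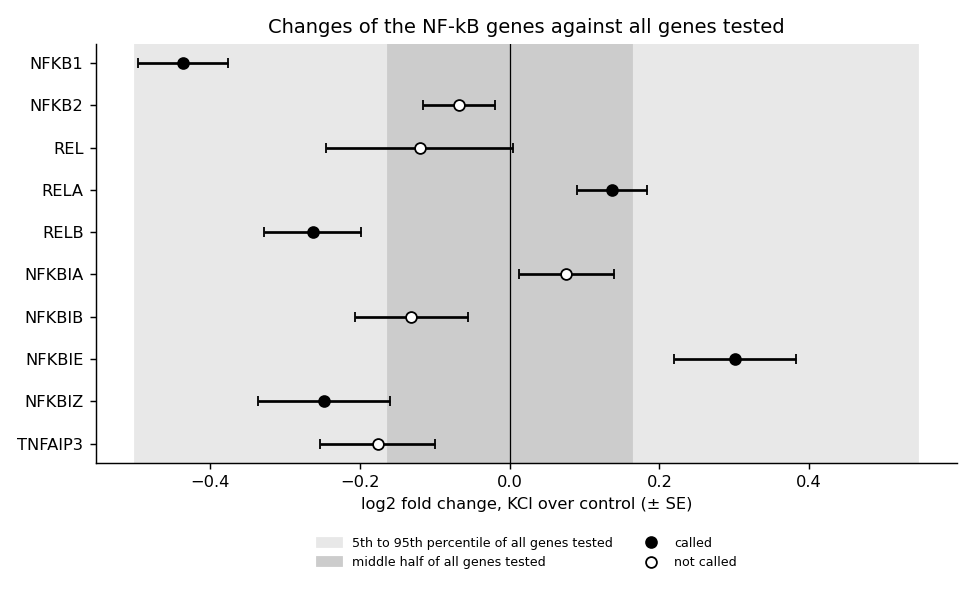
Log2 fold change of KCl over control (x axis) of the 10 genes with its SE, filled where the gene was called and open where it was not. The grey bands span the middle of the changes of all 13044 tested genes (dark, the quartiles; light, the 5th to the 95th percentile), and each of the 10 genes lies inside the light band, NFKB1 nearest its lower edge at -0.44.

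The inhibitors did not move as a group. NFKBIE, which codes for IkB epsilon, a cytoplasmic inhibitor that holds RELA and REL dimers (gene ID 4794, chromosome 6, 44258166 to 44265788, minus strand), had 32.6, 28.2 and 31.1 CPM in KCl, against 26.5, 26.1 and 22 CPM in control. Every KCl library was above every control library. The log2 fold change was 0.30 ± 0.08, a fold of 1.23 (edgeR adjusted p = 0.00474). The call held without each library in turn (edgeR adjusted p at most 0.0432) and was lost on TPM (limma adjusted p = 0.0524 on log2(TPM + 1)). Across the alternatives the adjusted p lay between 0.000943 and 0.604.

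NFKBIA, which codes for IkB alpha, the inhibitor that NF-kB re-induces to end its own activity (gene ID 4792, chromosome 14, 35401511 to 35404749, minus strand), had 52.4, 47.1 and 52.0 CPM in KCl, against 49.9, 48.5 and 45.2 CPM in control. The groups overlapped and the gene did not pass (edgeR adjusted p = 0.364, log2 fold change 0.08 ± 0.06). NFKBIB, which codes for IkB beta (gene ID 4793, chromosome 19, 38899700 to 38908893, plus strand), had 27.0, 25.1 and 26.3 CPM in KCl, against 29.8, 26.2 and 29.9 CPM in control. Control replicate 2 fell within the range of the KCl libraries, and the gene did not pass (edgeR adjusted p = 0.178, log2 fold change -0.13 ± 0.08). Its exons share 40 bases (1.7% of its exon bases) with SIRT2 on the opposite strand, which averaged 781.3 reads in KCl and 977.1 reads in control, and whether the counting used strand is not given in the sources used here.

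NFKBIZ, which codes for IkB zeta, an atypical nuclear IkB that switches on late inflammatory genes such as IL6 (gene ID 64332, chromosome 3, 101827991 to 101861022, plus strand), had 22.4, 25.1 and 19.4 CPM in KCl, against 27.0, 24.4 and 28.1 CPM in control. KCl replicate 2 lay above control replicate 2, so the groups overlapped. The log2 fold change was -0.25 ± 0.09 (edgeR adjusted p = 0.0277). The gene was called in 8 of the 16 settings (the main test and 15 alternatives). The call was lost without KCl replicate 1 (edgeR adjusted p = 0.0662), KCl replicate 3 (0.197), control replicate 1 (0.0805) or control replicate 3 (0.0989) and by DESeq2 (adjusted p = 0.0511). Across the alternatives it lay between 0.00561 and 0.975.

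TNFAIP3, which codes for a ubiquitin-editing enzyme that shuts off signalling upstream of the IkB kinases (gene ID 7128, chromosome 6, 137867188 to 137883312, plus strand), had 21.3, 20.5 and 20.7 CPM in KCl, against 23.2, 23.7 and 23.7 CPM in control. The libraries of each group lay close together and the groups did not overlap. The gene did not pass on counts (edgeR adjusted p = 0.0731, log2 fold change -0.18 ± 0.08), and it did pass as lower on log2(TPM + 1) (-0.21, limma adjusted p = 0.016) and with upper-quartile scaling (-0.22, edgeR adjusted p = 0.0272). Its adjusted p lay between 0.0153 and 1 across the alternatives. An antisense gene shares 1.9% of its exon bases.

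The summed levels of subunits and of inhibitors overlapped between the groups. The shares of NFKB1, RELA, RELB, NFKBIA, NFKBIB, NFKBIE and TNFAIP3 within these sums did not. The 5 subunit genes summed to 314.2, 318.6 and 333.2 TPM in the KCl libraries, against 343.2, 322.0 and 333.7 TPM in the control libraries. The 5 inhibitor genes summed to 174.1, 162.7 and 171.2 TPM in KCl, against 180.9, 169.3 and 173.8 TPM in control. The ratio of inhibitor to subunit TPM overlapped too (mean 0.526 in KCl and 0.524 in control). It is not a balance of function, since NFKBIZ was counted as an inhibitor and NFKB1 and NFKB2 only as subunits. Within the subunits, RELA made up 53.4% to 55.7% of the summed TPM in KCl and 47.2% to 50.5% in control, and NFKB1 6.65% to 7.57% in KCl and 9.14% to 9.55% in control. The share of RELB was 10% to 11.3% in KCl and 12.3% to 13% in control. NFKB1 and RELA form the best known dimer of the pathway, and the ratio of NFKB1 to RELA in TPM was 0.125, 0.140 and 0.120 in KCl, against 0.186, 0.202 and 0.185 in control, with no overlap. RELB to NFKB2, the pair of the non-canonical arm, was at 0.405, 0.392 and 0.373 in KCl, against 0.432, 0.440 and 0.465 in control. The share of NFKBIA in the inhibitor sum was 41.3% to 42.7% in KCl and 38% to 41% in control. A share depends on the other genes of its sum, and the RELA and NFKBIA shares lay apart while their own TPM overlapped between the groups. A ratio shows that 2 genes changed unequally and not which of them changed, and these shares and ratios are given with no test.

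**Figure D4:**
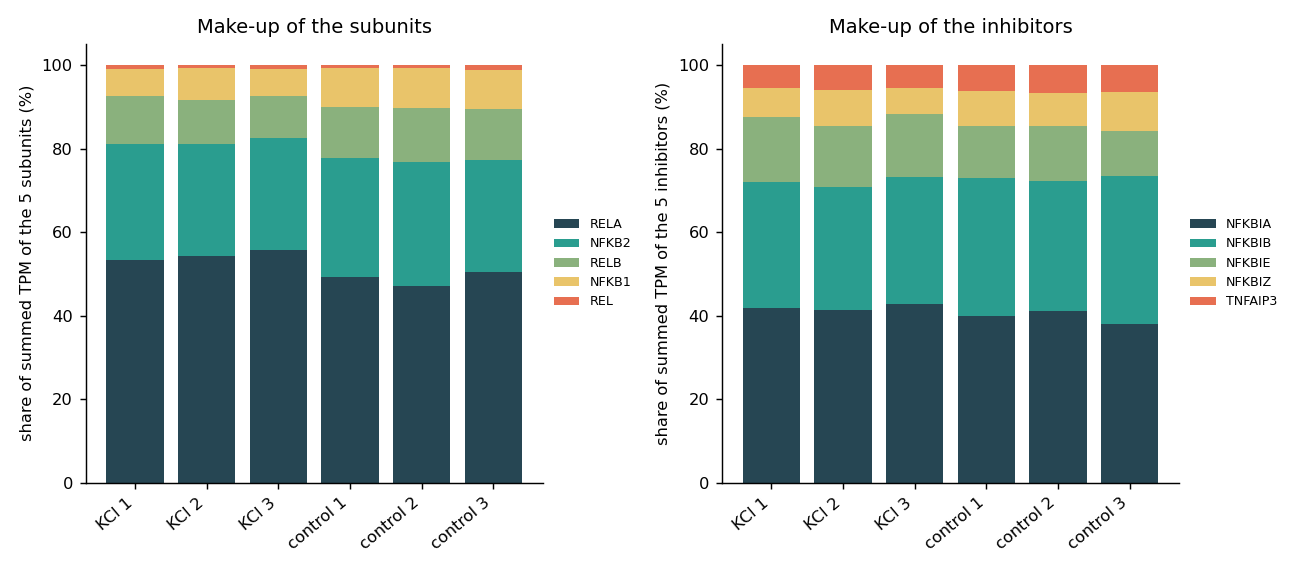
Share of each gene in the summed TPM (y axis, percent) of the 5 subunit genes (left) and the 5 inhibitor genes (right), 1 bar per library, KCl libraries before control libraries. RELA takes 53.4% to 55.7% of the subunit sum in KCl and 47.2% to 50.5% in control, and NFKBIE takes 14.8% to 15.5% of the inhibitor sum in KCl and 11% to 13.1% in control.

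Upstream of the subunits, the receptor genes TLR4 and IL1R1 and the kinase gene MAP3K14 rose. Of 26 tested receptors and adaptors, 8 were higher and 2 lower (38.5% called, beside 38.0% of all tested genes; median log2 fold change 0.14). TLR4, the receptor for bacterial lipopolysaccharide, had 10.5, 10.8 and 14.5 CPM in KCl, against 4.78, 5.23 and 5.37 CPM in control, and its log2 fold change was 1.22 ± 0.14 (edgeR adjusted p = 1.06e-07). IL1R1, the signalling receptor of interleukin 1, had 88.2, 81.2 and 87.8 CPM in KCl, against 57.7, 53.9 and 54.4 CPM in control (0.63 ± 0.05). MALT1 and CARD10, which form a signalling complex with BCL10, rose by 0.39 ± 0.07 and 0.32 ± 0.05, and the tumour necrosis factor receptor gene TNFRSF1A by 0.16 ± 0.05, a call lost without KCl replicate 3 (edgeR adjusted p = 0.0677, range 0.00328 to 1 over all alternatives). Without KCl replicate 3, 4 receptors and adaptors were called, all higher, and 7 higher and 2 lower had an unadjusted p under 0.05. Of 4 tested ligand genes, 1 was called, beside 38.0% of all tested genes: IL1B rose by 0.26 ± 0.05, with 87.38 ± 6.17 CPM in KCl and 73.11 ± 0.475 CPM in control. The other 7 ligand genes had too few reads to test, TNF among them, with 0 reads over the KCl libraries and 5 over the control libraries.

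Of the 11 IkB kinases, upstream kinases and their adaptors, 4 were higher and 1 lower (45.5% called, beside 38.0% of all tested genes; median 0.12). MAP3K14, the kinase that starts the non-canonical arm by acting on the NFKB2 product, had 75.4, 67.6 and 79.1 CPM in KCl, against 39.8, 38.5 and 43.6 CPM in control. The groups were far apart, and the log2 fold change was 0.87 ± 0.07 (edgeR adjusted p = 1.03e-10). TAB2, an adaptor of the kinase MAP3K7, rose by 0.32 ± 0.04, while CHUK and IKBKG, subunits of the IkB kinase complex, did not pass (-0.01 ± 0.06 and 0.09 ± 0.05). The kinase genes IKBKB and MAP3K7 rose by 0.18 each. The IKBKB call was lost without KCl replicate 2 (edgeR adjusted p = 0.0552) or control replicate 3 (0.0911), and the MAP3K7 call without KCl replicate 3 (edgeR adjusted p = 0.109) or control replicate 3 (0.236), with a highest adjusted p of 1 for both over all alternatives. Of 16 genes listed for ubiquitin ligases and their partners, 4 were higher and 2 lower (37.5% called, beside 38.0% of all tested genes). RBCK1, a subunit of the linear ubiquitin ligase, rose by 0.27 ± 0.05, TRAF2 by 0.33 ± 0.07 and TRAF5 by 0.36 ± 0.10. On log2(TPM + 0.1) RBCK1 (limma adjusted p = 0.0643) and TRAF5 (0.0504) lost their calls. TRAF1, a short adaptor that NF-kB induces, had 2.41, 4.36 and 3.66 CPM in KCl, against 7.12, 6.29 and 5.11 CPM in control (log2 fold change -0.83 ± 0.19, edgeR adjusted p = 0.00104).

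Other inhibitors and IkB relatives were called in both directions, 6 higher and 4 lower of 17 tested (58.8% called, beside 38.0% of all tested genes; median 0.04). TNIP1, the partner of TNFAIP3, rose by 0.22 ± 0.05, RNF11, a member of the same complex, by 0.20 ± 0.05, and PDLIM2, which ends nuclear RELA activity, by 0.32 ± 0.07. On log2(TPM + 1) the calls of TNIP1 (limma adjusted p = 0.0588) and RNF11 (0.0609) were lost, and on log2(TPM + 0.1) that of PDLIM2 (0.0599) as well. BCL3, a nuclear IkB relative that works with the NFKB1 and NFKB2 products, rose by 0.22 ± 0.06, a call lost without control replicate 2 (edgeR adjusted p = 0.0718, range 0.0014 to 1 over all alternatives). NKIRAS2, which slows the breakdown of IkB proteins, was lower (-0.26 ± 0.05), and the deubiquitinase gene CYLD did not pass (-0.05 ± 0.06). Of 9 RELA cofactor genes, 1 was called (11.1%, beside 38.0% of all tested genes): the deacetylase gene SIRT1 was lower (-0.27 ± 0.06).

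Known targets of NF-kB were called in both directions, 10 higher and 7 lower of 26 tested (65.4%, beside 38.0% of all tested genes), with a median log2 fold change of 0.06 and a median size of 0.26. The early response gene IER3 averaged 545.1 ± 36.4 CPM in KCl and 323.6 ± 14.8 CPM in control (0.75 ± 0.05, edgeR adjusted p = 2.22e-12). The monocyte chemokine gene CCL2 had 96.3, 96.5 and 104.0 CPM in KCl, against 59.7, 54.9 and 60.8 CPM in control (0.76 ± 0.05). The cyclin gene CCND1 rose by 0.57 ± 0.05, and the cytokine gene IL6 by 0.26 ± 0.06, a call lost on log2(TPM + 1) (limma adjusted p = 0.0715). CD83, a surface protein of activated immune cells, had 7.23, 9.10 and 8.17 CPM in KCl, against 14, 15.6 and 13.9 CPM in control (-0.83 ± 0.11, edgeR adjusted p = 1.46e-06), and the adhesion gene ICAM1 was also lower (-0.16 ± 0.04). The chemokine gene CXCL8 (-0.03 ± 0.08) and the superoxide dismutase gene SOD2 (0.07 ± 0.05) did not pass. Most of these targets also answer to other factors, and the list was put together with earlier results of these data known. TRAF1 (called lower) and BIRC3 (not called) stand in this list and in that of the ubiquitin ligases, and are counted in both. The share called in any list is a description of these libraries, with no test of its difference from all genes.

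**Figure D5:**
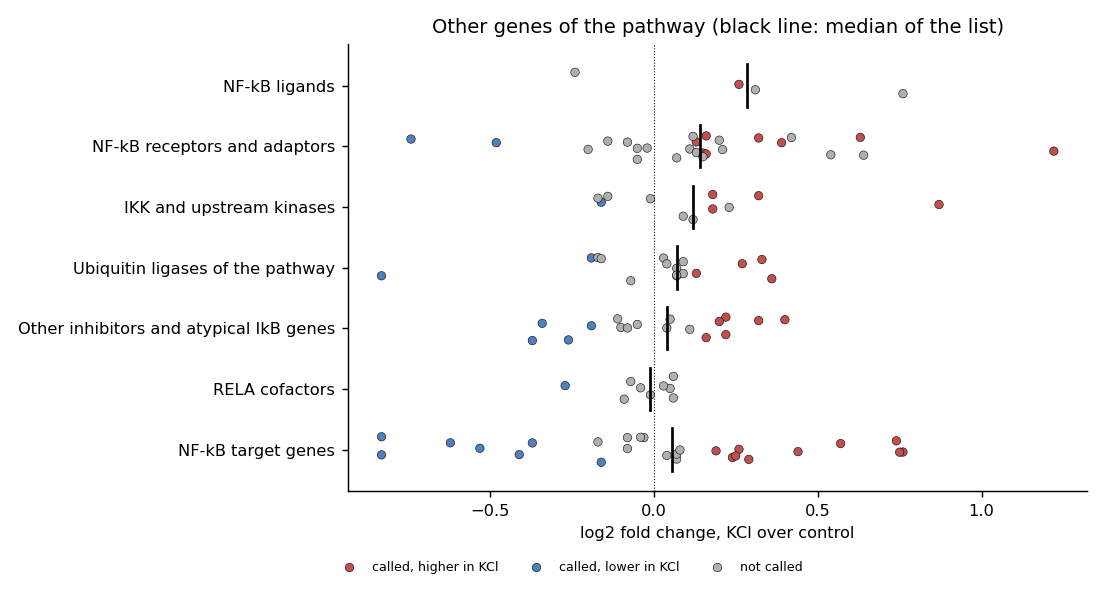
Log2 fold change of KCl over control (x axis) of each tested gene in 7 lists of other NF-kB pathway genes (rows). Red dots are genes called higher, blue dots genes called lower and grey dots genes not called. TRAF1 and BIRC3 stand in the ubiquitin ligase list and in the target list, and are drawn in both. The black line is the list median, which runs from -0.01 for the RELA cofactors to 0.28 for the 4 tested ligands, and TLR4 at 1.22 is the point farthest to the right.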

How the data were processed

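Messenger RNA was measured in 3 KCl and 3 control libraries of AC16 cells. Per the labels' protocols, RNA was column-purified and made into strand-specific libraries for the DNBSEQ platform. The submitters' processing notes name GRCh38.p12. Not given in the sources used here were the aligner, counting tool and annotation. The authors deposited estimated counts of reads per gene with no normalization, and 11.25% to 11.87% of the values per library were not whole (tolerance 0.001). In 27 rows a gene symbol that a spreadsheet had turned into a date was restored. The authors also deposited TPM and FPKM, which divide by gene length and library size. The codes in the column names were tied to KCl and control through the authors' group means, which equalled the means of the library columns within 3.35e-10. Chi-square per gene between libraries of a group was 3.05 to 4.53, which is more than counting noise alone gives. The first principal component (50.0% of the variance) separated KCl from control libraries.

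Estimated counts were rounded and tested across all genes with edgeR 4.0.16 in R 4.3.3 (TMM scaling, filterByExpr with a minimum count of 10 and a minimum total of 15, robust two-sided quasi-likelihood F test, design of group only), with Benjamini-Hochberg adjustment over 13044 genes and a threshold of 0.05. Fold changes are KCl over control, and the SE is the log2 fold change divided by the square root of F. The procedure was tested on simulated data with known changes. A count of 0 allows up to 3 reads, which is 0.156 to 0.161 CPM. Such limits cover counting error only.

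The genes and lists were chosen with earlier results of these data known. Beside the 10 genes, the text names by rule up to 4 called genes of each list with the smallest p, or the 1 with the smallest p where none was called, and CHUK, IKBKB, IKBKG, MAP3K14, BCL3, CYLD, TNFRSF1A, IL1R1, IL6, CXCL8, ICAM1 and SOD2. Gene positions come from GENCODE 29 (GRCh38), and promoter windows from RefSeq (GRCh38.p14). Alternatives were RLE and upper-quartile scaling, no low-count filter, DESeq2 1.42.0, limma-voom and limma 3.58.1 on log2(TPM + 1) and log2(TPM + 0.1), the replicate number as a block, each library left out in turn, and glmTreat against a fold change of 1.2.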

Additional observations from a re-analysis of the deposited data

How the results depend on the processing

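The directions of the called NF-kB genes held under every alternative run. Higher calls made up 52.8% of all calls on TMM-scaled counts, 40.9% with upper-quartile scaling, 41.4% on log2(TPM + 1), 41.8% on log2(TPM + 0.1) and 60.6% by glmTreat. Over all genes the median of the log2 fold changes was -0.005 in the main test and -0.046 with upper-quartile scaling. Over all genes, 2621 were called higher and 2342 lower. Higher calls numbered 1554 on log2(TPM + 1) and 1420 on log2(TPM + 0.1), and glmTreat against a fold change of 1.2 left 661 higher and 430 lower.

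Of the NF-kB genes, 2 were higher and 3 lower in the main test. The number higher was 1 with upper-quartile scaling, and 0 on log2(TPM + 1), on log2(TPM + 0.1) and by glmTreat, where 1, 1 and 0 had an unadjusted p under 0.05. It was 1 to 2 with a library left out. By glmTreat 1 was lower (NFKB1). RELA lost its call with upper-quartile scaling (log2 fold change 0.10, adjusted p = 0.0985 by edgeR), on both TPM scales (0.10, limma adjusted p = 0.285 and 0.301) and by glmTreat (0.14, adjusted p = 1), and its log2 fold change ran from 0.09 to 0.16 with a library left out. RELB lost its call by glmTreat alone (-0.26). NFKBIE lost its call on TPM (0.26 and 0.27, limma adjusted p = 0.0524 and 0.0703) and by glmTreat (0.30). NFKBIZ lost its call by DESeq2 (-0.25), on both TPM scales (-0.27 and -0.29) and by glmTreat (-0.25), and ran from -0.34 to -0.16 with a library left out. TNFAIP3 passed as lower with upper-quartile scaling (-0.22) and on both TPM scales (-0.21 and -0.23).

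Of the lists, called ligands numbered 1 in the main test, 2 with upper-quartile scaling and on both TPM scales, 1 to 2 with a library left out and 0 by glmTreat. Called receptors and adaptors numbered 10, 6 on both TPM scales, 2 by glmTreat and 4 to 10 with a library left out. Called kinases numbered 5, 3 by DESeq2, 2 on both TPM scales and 1 by glmTreat. Called ubiquitin ligases and partners numbered 6, and 1 by glmTreat. Other called inhibitors numbered 10, 5 on log2(TPM + 1), 4 on log2(TPM + 0.1) and 0 by glmTreat. Called RELA cofactors numbered 1, 2 with upper-quartile scaling and 0 by glmTreat. Called target genes numbered 17, and 7 by glmTreat. Of the called pathway genes named, TLR4, IL1R1, MAP3K14, TRAF1, IER3, CCL2, CCND1 and CD83 passed glmTreat and the others did not. On both TPM scales IKBKB, MAP3K7, TNFRSF1A, BCL3, TNIP1, RNF11 and IL6 lost their calls. MAP3K7 also lost its call by DESeq2 and with upper-quartile scaling. The cause of these differences was not tested, except that glmTreat asks for a larger change by its construction.

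Libraries with the same replicate number in the titles showed little shared deviation (correlation -0.004, -0.006 and 0.048 for numbers 1, 2 and 3). Differently numbered libraries gave -0.059 to 0.068. With 3 libraries per group these values cannot exclude a pairing. With the replicate block 2715 genes were higher and 2425 lower, and no call of an NF-kB gene changed. Depth limits REL most, with 160 to 217 reads per library.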
